A study of Homo sapiens with 7 samples.

Results

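The 10 apolipoprotein genes APOA1, APOA2, APOA4, APOA5, APOB, APOC1, APOC3, APOE, APOH and APOM were examined in HepG2, a human liver cancer cell line. They were taken from the expression table as the rows whose gene field, split at commas, holds one of these symbols, and they are 10 of 21944 distinct symbols in that table. There are 7 samples, 1 for each of RNA-Seq, a nucleosome map by MNase digestion of native chromatin, and ChIP-Seq of the activation marks H3K4me3, H3K9ac and H3K27ac and the repressive marks H3K27me3 and H3K9me3. There is no replicate and no pair of groups to compare, so no P value is given and every count is a description of these libraries. Coordinates are those of the hg19 build.

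Apolipoproteins are the protein part of the particles that carry cholesterol and triglycerides in blood, and the liver makes most of them. APOB forms the scaffold of very low and low density lipoproteins, APOA1 and APOA2 are the main proteins of high density lipoproteins, and the smaller exchangeable apolipoproteins (APOE, APOC1, APOC3, APOA4, APOA5) move between particles and act on receptors and lipases. Of the marks, H3K4me3 lies around active transcription start sites (TSS), H3K9ac and H3K27ac at active promoters and enhancers, and H3K27me3 and H3K9me3 in repressed chromatin. A nucleosome position with H3K4me3, H3K9ac and H3K27ac together and no repressive mark is called trivalent, or "T".

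The proximal promoters are shown first. Their starts are those of RefSeq and need not be the listed locus starts around which the marks are ordered. The APOC1 window ends at chr19:44914671 in GRCh38, farther from the end of the APOE window than the listed hg19 starts lie apart (45417066 and 45409038). The APOC1 promoter values therefore describe sequence inside its listed locus, not before its listed start. The 250 bases before the start, from the RefSeq promoter table of GRCh38.p14, are given for 5 of the 7 members that the table holds (APOA2, APOA4, APOA5, APOC1, APOE, APOH and APOM) and for P4HB, whose product is a subunit of the complex that loads lipid onto APOB, for contrast. Each reads 5′ to 3′ on the strand of the gene, and capitals mark CpG dinucleotides. APOA1, APOB and APOC3 were not matched. The windows are chr1:161223629-161223878 (minus) for APOA2, chr11:116823305-116823554 (minus) for APOA4, chr11:116792421-116792670 (minus) for APOA5, chr19:44905546-44905795 (plus) for APOE, chr17:66229416-66229665 (minus) for APOH and chr17:81860536-81860785 (minus) for P4HB.
APOA2: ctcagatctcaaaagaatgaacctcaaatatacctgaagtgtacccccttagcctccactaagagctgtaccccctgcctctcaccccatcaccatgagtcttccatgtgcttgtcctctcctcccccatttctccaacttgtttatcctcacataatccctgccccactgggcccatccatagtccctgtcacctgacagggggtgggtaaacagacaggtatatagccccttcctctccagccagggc
APOA4: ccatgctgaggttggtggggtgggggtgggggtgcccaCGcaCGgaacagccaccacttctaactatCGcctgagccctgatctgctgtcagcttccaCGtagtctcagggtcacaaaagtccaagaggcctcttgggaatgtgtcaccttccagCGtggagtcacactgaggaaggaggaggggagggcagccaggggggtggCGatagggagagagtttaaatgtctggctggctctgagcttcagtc
APOA5: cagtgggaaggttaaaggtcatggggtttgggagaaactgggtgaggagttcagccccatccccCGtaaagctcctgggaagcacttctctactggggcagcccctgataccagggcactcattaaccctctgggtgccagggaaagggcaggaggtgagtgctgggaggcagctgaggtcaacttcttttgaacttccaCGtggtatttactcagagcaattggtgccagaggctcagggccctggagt
APOE: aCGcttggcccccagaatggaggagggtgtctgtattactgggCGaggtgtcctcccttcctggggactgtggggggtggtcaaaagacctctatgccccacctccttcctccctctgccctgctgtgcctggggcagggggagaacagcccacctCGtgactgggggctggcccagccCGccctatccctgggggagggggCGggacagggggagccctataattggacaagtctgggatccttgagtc
APOH: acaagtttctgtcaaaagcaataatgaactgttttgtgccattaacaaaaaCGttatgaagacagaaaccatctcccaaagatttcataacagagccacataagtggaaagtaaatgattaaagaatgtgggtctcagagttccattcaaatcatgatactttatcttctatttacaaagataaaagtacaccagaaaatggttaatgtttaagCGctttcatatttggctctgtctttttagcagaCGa
P4HB: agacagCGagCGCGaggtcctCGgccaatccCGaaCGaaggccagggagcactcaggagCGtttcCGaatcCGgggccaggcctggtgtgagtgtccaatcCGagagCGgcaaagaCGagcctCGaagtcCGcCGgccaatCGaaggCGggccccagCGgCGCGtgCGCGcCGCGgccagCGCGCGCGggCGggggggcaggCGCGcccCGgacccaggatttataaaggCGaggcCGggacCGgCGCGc

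The apolipoprotein promoters held few CpG dinucleotides. APOA2 had 0 in 250 bases at a GC content of 52.8%, APOA5 had 2 at 56.4%, APOH 3 at 33.2%, APOM 3 at 50.4%, APOE 5 at 64.8%, APOA4 6 at 59.2% and APOC1 7 at 62.4%, while P4HB had 37 at 72.4%. The ratio of CpG observed to that expected from base content ranged from 0 (APOA2) to 0.436 (APOH), with a median of 0.192 over the 7 members, and was 1.14 for P4HB. All 7 members were below a ratio of 0.6, a limit set after the values had been seen, and so were 52.6% of 27305 RefSeq promoters but only 17.4% of the 288 promoters of other genes with an FPKM of at least 100. The 7 promoters thus had the base composition of the low-CpG class in a set of highly expressed genes whose median ratio was 0.835.

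Of 7 short motifs searched on both strands in the 300 bases from 250 before to 50 after the start, 12 matches fell in the 7 members, 6 of them in APOA5. That promoter held AGGTCA, the core site of nuclear receptors, at -235 and -74, GTTAAT, part of the site of the hepatocyte factor HNF1, at -129, the E-box CACGTG at -52, CCAAT at -30 and TATAAA at -1, counted from the start to the first base. AGGTCA occurs in 13.9% of all 27305 windows, GTTAAT in 6.89%, CACGTG in 7.43% and TATAAA in 12.0%. APOH held GTTAAT at -210 and -49. APOE held GGGCGG, the GC box, at -72 and -51 and CCAAT at -27, and APOC1 held GGGCGG at -15; these motifs occur in 44.6% and 35.7% of all windows. CAAAGTCCA was in none of the 7 windows and in 0.359% of all. A match describes letters in the window and does not show binding.

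RNA-Seq values were deposited as FPKM, a fragment count scaled to transcript length and library size, in 2 columns of 1 sample, here called run 1 and run 2. APOA2 was the highest member, with 5095 in run 1 and 5323 in run 2, the third of 22113 named loci. APOH, which encodes the phospholipid-binding plasma protein beta-2-glycoprotein I, had 2057 and 2089 (rank 16). APOA1 had 1404 and 1450 (rank 33), APOB 1237 and 1265 (rank 44) and APOE 1161 and 1143 (rank 57). The RNA of both main proteins of high density lipoproteins and of the APOB scaffold therefore lay among the 50 highest loci, along with APOH.

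The other members spanned a wide range. APOC1, which inhibits several enzymes and receptors of lipoprotein metabolism, stood at 434 and 448 (rank 151), and APOC3, an inhibitor of triglyceride clearance, had 246.5 and 240.2 (rank 260). APOM, a lipocalin on high density lipoproteins that carries sphingosine-1-phosphate, had 131 and 125 (rank 550). The row that holds APOA5, which promotes triglyceride hydrolysis in plasma, had 42.9 and 42.6 (rank 1881), but it is a merged locus of APOA5 and ZNF259 and its FPKM cannot be divided between them. APOA4, a protein that is made mainly in the intestine in humans, had 1.20 and 1.31 (rank 11046).

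The mean of both runs differed 4157-fold between APOA2 and APOA4. Runs of a member differed by at most 0.13 on the log2(FPKM + 0.01) scale (APOA4), far less than the steps between most members, but APOA1, APOB and APOE lie close together in mean FPKM (1427, 1251 and 1152). Whether the runs were separate cultures is not stated, so their closeness shows only technical or culture spread within 1 sample. An FPKM of at least 100 was reached by 8 of 10 members and by 2.86% of 13359 other analysed genes. The 10 members together made up 1.38% of the summed FPKM in run 1 and 1.23% in run 2. APOA1 is listed a second time at the same coordinates with numbering of the opposite strand, at 0.849 in run 1 and 0.997 in run 2, 1546-fold below the main row. APOM is also listed on 6 alternative haplotype sequences of chromosome 6, each at 0, so reads that fit several of these copies make its value less certain.

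**Figure D1:**
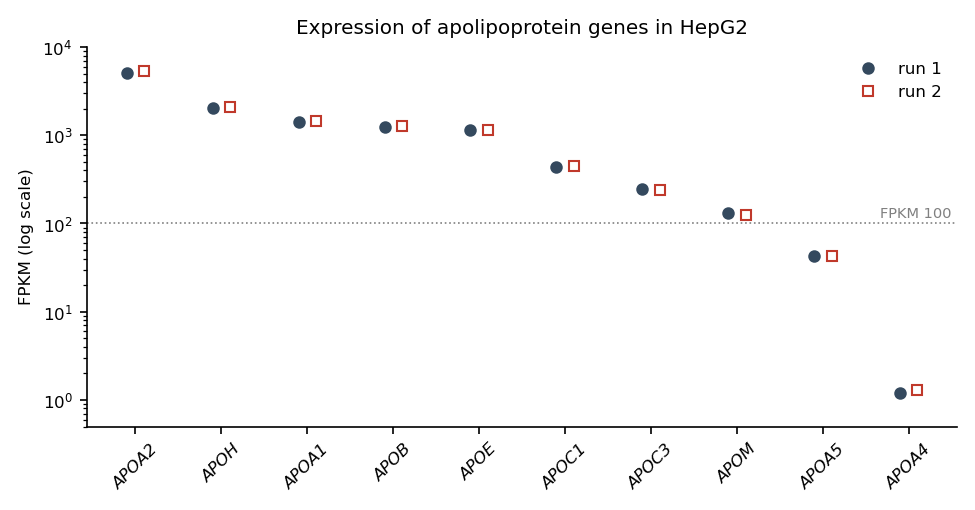
FPKM of the 10 apolipoprotein genes in HepG2 on a log axis, with filled circles for run 1 and open squares for run 2 of the same sample. Values fall from 5095 and 5323 for APOA2 to 1.20 and 1.31 for APOA4, and 8 genes lie above the dotted line at an FPKM of 100.

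The cell type was checked with markers. All 9 hepatocyte and hepatoma markers had an FPKM of at least 1, and 7 had at least 100, led by ALB at 10011 and AFP at 3798. Of 6 intestinal markers 4 were under 0.1 (CDX2, CDH17, LCT and SI, the last 2 listed at 0), while VIL1 stood at 70.6 and FABP2 at 6.26. Of 6 macrophage markers 4 were under 0.1, with PTPRC listed at 0 and CD14 at 2.53, and CD68 shares a merged row with several other genes. Fibroblast markers ranged from LUM at 0.0278 to PDGFRB at 2.0.

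Nucleosome positions come from 1 native MNase-Seq library, 14217405 in all, and each mark was listed by the authors as peaks at such positions, from 26271 for H3K27me3 to 95886 for H3K27ac. No height or read count is given, so depth per position is unknown and a position without a peak only failed to pass the calling limits. The 10 loci with 10 kb on each side held 1427 distinct positions. Of these, 132 (9.25%, exact 95% interval 7.80 to 10.9) carried a mark, against 1.43% of positions genome-wide. T was the most frequent combination, with 57 of the 132 marked positions (43.2%, 34.6 to 52.1), against 20.98% genome-wide. H3K27ac alone marked 27, H3K4me3 alone 22, H3K4me3/H3K9ac 13, H3K9ac/H3K27ac 10 and H3K4me3/H3K27ac 3, and H3K9ac alone marked none. Intervals cover counting error only. The windows lie at mostly highly expressed genes and take in some starts of neighbours, whereas the genome-wide shares cover all positions. Shares for like windows of other expressed genes were not taken, so whether the contrast is particular to these loci was not tested.

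No position in any of the 10 windows carried H3K27me3 or H3K9me3, also not with 20 kb on each side. At least 1 such position lay in the same kind of window for 23.8% of the 382 other analysed genes with an FPKM of at least 100. The windows of APOA4, APOC3 and APOA1 overlap, as do those of APOE and APOC1, so the members cover fewer than 10 separate regions. The windows without a repressive mark included that of APOA4, whose mean FPKM was 1.25.

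**Figure D2:**
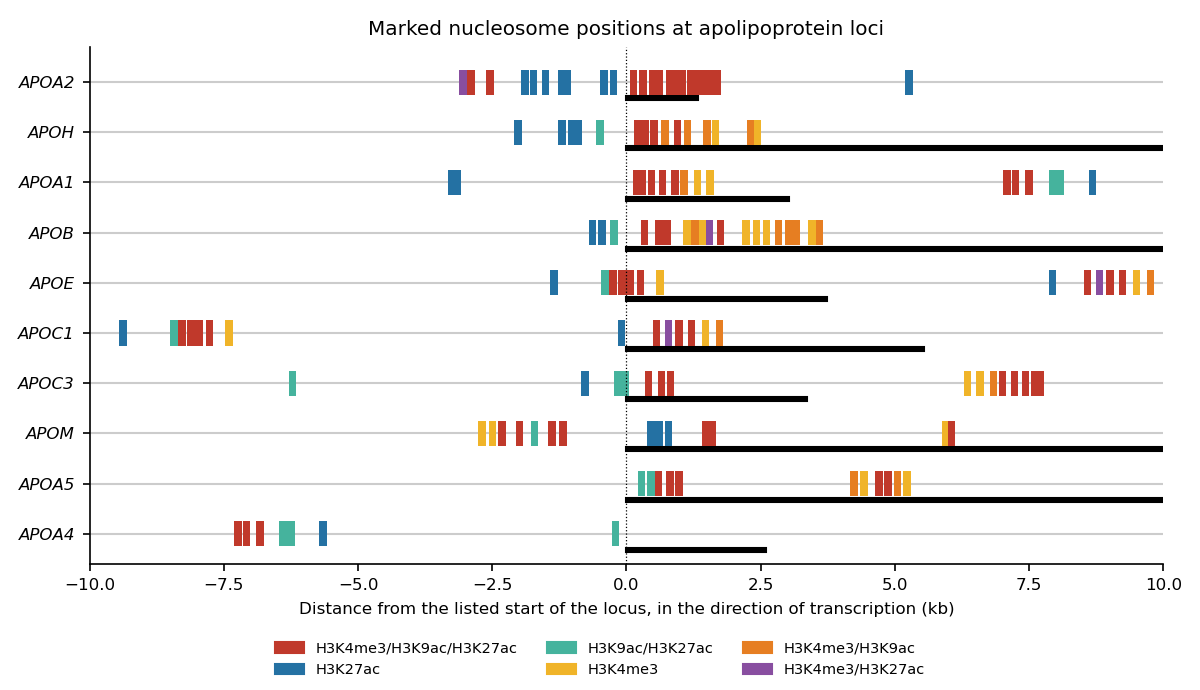
Marked nucleosome positions around the listed start of each locus, in the direction of transcription, with genes ordered by FPKM from the top. Colours give the exact combination of marks, and black bars give the listed locus. Red trivalent positions lie right of the start in APOA2, APOH, APOA1, APOB, APOC1, APOC3 and APOA5, on both sides of it in APOE, and are absent within 2 kb of the APOA4 start. The start drawn for APOM is that of a merged locus.

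APOA2 had by far the longest unbroken stretch. Its locus (chr1:161192082-161193418, minus strand, 1337 bp) held 9 positions and all 9 were trivalent, and 3 further trivalent positions followed beyond its end, making 12 in a row over chr1:161191652-161193356, or 1705 bp. Upstream the pattern changed at the TSS. The next 7 marked positions, from -243 to -1893 bp (distances are from the TSS to the midpoint), carried H3K27ac alone. Within 2 kb, 19 of 22 positions were marked (86.4%, 65.1 to 97.1). A run of at least 12 trivalent positions was found at 0.0225% of 13359 other genes, which is 3 genes. Among the 382 other genes with an FPKM of at least 100, the highest count of T within 2 kb was 11, and 0 of the 378 with at least 5 positions in the locus had all of them trivalent, nor did any of the 63 whose locus was at most 5 kb long. Farther out, from -2541 to -3048 bp, 2 trivalent positions and 1 with H3K4me3/H3K27ac lay at the start of the locus shared by TOMM40L and NR1I3, and the 1 marked position on the other side, at +5265 bp, carried H3K27ac alone inside FCER1G.

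APOA1 (chr11:116705316-116708338, minus strand) had 5 trivalent positions in a row from +192 to +902 bp, spanning chr11:116707367-116708216. They were followed by H3K4me3/H3K9ac at +1067 bp and by H3K4me3 alone at +1322 and +1552 bp, so with distance H3K27ac and then H3K9ac were no longer called. No marked position lay within 2 kb upstream. The nearest on that side were a pair with H3K27ac alone at -3158 and -3261 bp, between APOA1 and SIK3. The listed locus is 1151 bp longer than the RefSeq gene (1872 bp), and the table does not say at which end.

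APOM cannot be resolved in the same way, since its listed locus (chr6:31622335-31637843) is shared with CSNK2B (FPKM 152) and with C6orf47 and GPANK1 (13.2). The 21 marked positions of its window formed several groups. One with 4 trivalent positions lay from -2314 to -1184 bp of the listed start, inside BAG6. Inside the locus, 3 positions with H3K27ac alone (+456 to +781 bp) preceded a trivalent pair at +1486 and +1606 bp, and further trivalent positions lay at +6058 bp and from +10746 to +11181 bp. Which of these belongs to APOM cannot be told from the listed start, and its RefSeq promoter, given in GRCh38, was not placed on hg19. APOM was therefore left out of the counts around a start.

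APOB (chr2:21224300-21266945, minus strand, 42646 bp) carried all but 1 of its marked positions at the 5′ end. H3K27ac alone at -631 and -456 bp and H3K9ac/H3K27ac at -236 bp were followed by T at +339, +609 and +759 bp. From +1129 to +3584 bp lay 6 positions with H3K4me3 alone, 5 with H3K4me3/H3K9ac, 1 with H3K4me3/H3K27ac and 1 trivalent, the last at +1754 bp. Beyond +3584 bp a single position, at +14884 bp with H3K27ac alone, was marked. Of 236 positions in the locus 17 (7.20%) were marked and 4 were trivalent. Around the start, H3K4me3 thus reached farther into the gene than H3K27ac.

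APOH (chr17:64208146-64225556, minus strand) followed the same order. H3K27ac alone at -2020, -1200, -1010 and -895 bp and H3K9ac/H3K27ac at -490 bp gave way to T at +215, +350 and +515 bp. H3K4me3/H3K9ac at +715 bp was followed by T at +950 bp and then by 5 positions with H3K4me3 alone or with H3K9ac up to +2430 bp. Within 2 kb, 12 of 20 positions were marked (60%, 36.1 to 80.9), the highest share after APOA2.

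APOE and APOC1 lie in the same direction on chromosome 19, with APOC1 downstream. APOE (chr19:45409038-45412771), the ligand of the LDL receptor on remnant particles, had its 4 trivalent positions centred on the start, at -247, -87, +68 and +263 bp, with H3K9ac/H3K27ac at -402 bp, H3K27ac alone at -1352 bp inside TOMM40, and H3K4me3 alone at +623 bp. It was the only one of the 9 members with a start of their own that had T within 2 kb upstream of it. APOC1 (chr19:45417066-45422606) had H3K27ac alone at -90 bp, T at +555, +982 and +1210 bp with H3K4me3/H3K27ac between the first and second of them, then H3K4me3 alone at +1473 bp and H3K4me3/H3K9ac at +1730 bp. No position between +623 bp of APOE and -90 bp of APOC1 was marked. About 11 kb past the APOC1 start, in the locus of the pseudogene APOC1P1 (FPKM 3.53), 3 positions with H3K27ac alone and 1 with H3K9ac/H3K27ac lay at chr19:45427818-45428516, followed by a trivalent pair at chr19:45430114-45430416.

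APOA4, APOC3 and APOA1 lie side by side on chromosome 11, APOC3 on the opposite strand to the other two. APOC3 (chr11:116700434-116703793, plus strand) had H3K27ac alone at -773 bp, H3K9ac/H3K27ac at -171 and -28 bp and T at +407, +657 and +817 bp. APOA4 (chr11:116691417-116694011, minus strand) had a single marked position within 2 kb, H3K9ac/H3K27ac at -205 bp, 1 of 22 (4.55%, 0.115 to 22.8), and none of the 14 positions in its locus was marked. Both therefore carried H3K9ac/H3K27ac just upstream, but H3K4me3 was called only at APOC3. The FPKM of the 3 neighbours was 1.25, 243 and 1427, in the order APOA4, APOC3, APOA1, and the T counts within 2 kb were 0, 3 and 5.

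APOA5, in the same region (chr11:116644162-116663312 as merged with ZNF259, minus strand), had its start at the APOA5 end of the locus. H3K9ac/H3K27ac at +279 and +456 bp was followed by T at +596, +811 and +976 bp, and no marked position lay within 10 kb upstream. A separate group of 6 marked positions, 2 of them trivalent, at chr11:116658022-116659146 lay in the rest of the merged locus, and another of 5 with 3 trivalent at chr11:116643004-116644113 lay at the start of BUD13. Neither group is within 2 kb of the listed APOA5 start.

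**Figure D3:**
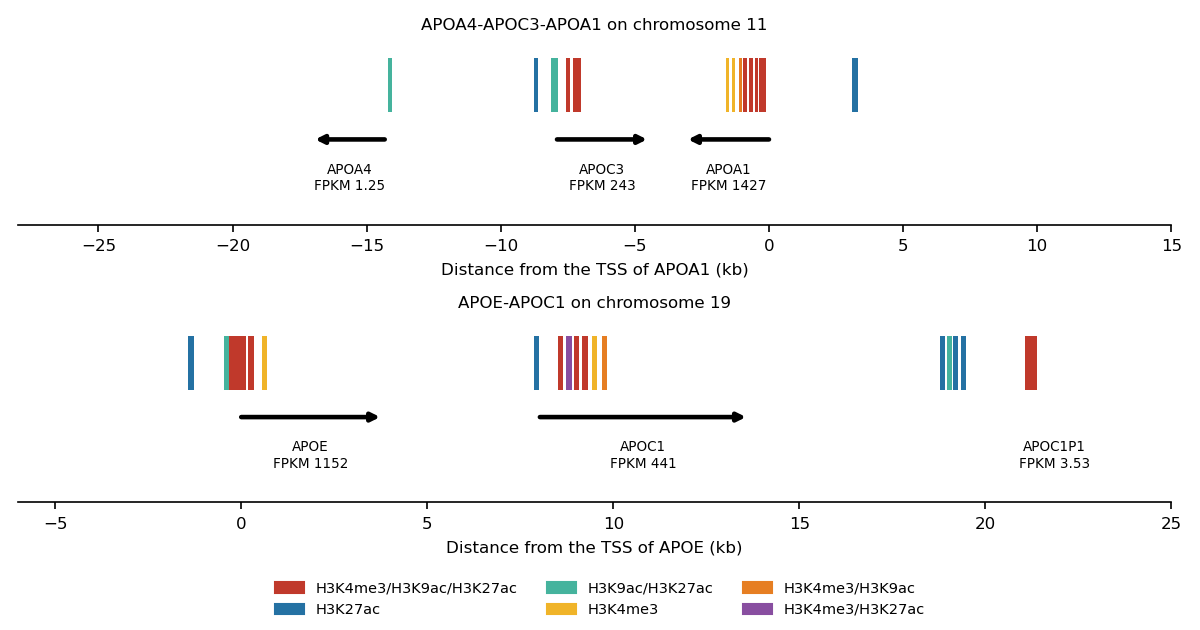
Marked nucleosome positions in the APOA4-APOC3-APOA1 region (upper panel, distance in kb from the APOA1 TSS) and the APOE-APOC1 region (lower panel, distance from the APOE TSS), with arrows for the listed loci and the mean FPKM under each name. In the upper panel APOA1 and APOC3 have red trivalent blocks inside the gene and APOA4 has 1 H3K9ac/H3K27ac position, and in the lower panel the space between APOE and APOC1 is unmarked.

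Counts around the start were then set beside other genes. At least 3 trivalent positions within 2 kb of the TSS were found in 8 of the 9 members whose locus start could be used (all but APOM), APOA4 being the exception, and in 6 of the 7 members in the analysed set, which leaves out APOA1 and APOA5, against 27.7% of 13359 other analysed genes. Among the 382 of these with an FPKM of at least 100 the share was 71.2%, so the members' count is near that of genes of like expression. The median of the 9 members was 4 T, as was that of the 382 genes, whose quartiles were 2 and 5. APOA1 had 5 (76 of 382 had more), APOB, APOE and APOH had 4 (142 had more) and APOA5, APOC1 and APOC3 had 3 (209 had more). APOA2 exceeded all 382. APOA4, with 0, had the count of 37 of them, though its own FPKM was far lower. Whether low counts among the 382 genes come from listed starts away from the promoter was not tested.

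**Figure D4:**
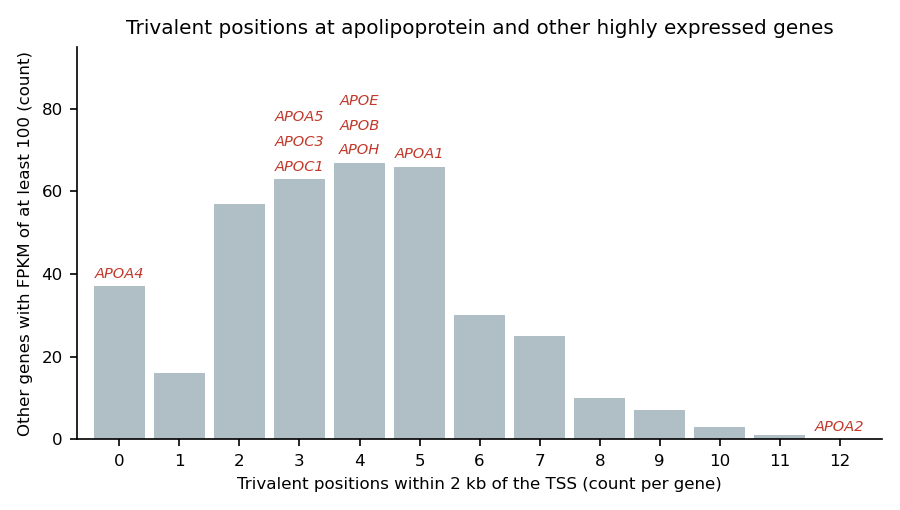
Histogram of trivalent positions within 2 kb of the TSS over 382 other genes with an FPKM of at least 100, with the 9 apolipoprotein genes that have their own start written above their count. The members sit at 3 to 5 in the middle of the histogram, except APOA4 at 0 and APOA2 at 12, which is beyond the highest other gene at 11.

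The side of the start on which each mark lay was counted next. Over the 8 members with their own start and an FPKM of at least 10, 36 of 38 trivalent positions (94.7%) lay downstream, or 4.5 per gene, and the 2 upstream were both at APOE. In the 382 other genes, 76.5% lay downstream, with 2.92 per gene there and 0.895 upstream. APOA2 alone held 12 of the 36, and the median downstream was 3 T both in the 9 members and in the 382 genes. T upstream was present in 1 of 9 members against 43.2% of the other genes, and T downstream in 8 of 9 against 89.8%. H3K27ac without H3K4me3 showed the opposite side. It was present upstream in 7 of 9 members, all but APOA1 and APOA5, against 22.3% of the other genes. The 8 members held 20 such positions (2.5 per gene), 7 of them at APOA2, against 0.416 per gene. The median was 2 in the 9 members and 0 in the other genes. H3K4me3 without H3K27ac was found at 0 upstream positions and at 13 downstream (1.63 per gene), against 0.455 and 1.90 per gene. The listed starts of the other genes were not set beside RefSeq. Some of these genes, such as NQO1 (FPKM 284) and H3F3A (401), had no marked position within 2 kb of the listed start. Whether such starts lie away from the promoter was not tested, so the shares of the other genes may carry errors of start.

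The 3 features together (no T upstream, T downstream and H3K27ac without H3K4me3 upstream) held for 5 of 9 members, APOA2, APOB, APOC1, APOC3 and APOH, and for 12.0% of the other genes. They are not particular to apolipoprotein genes, since the hepatocyte markers AHSG and ASGR1 had them too. This combination was put together after the maps had been seen, so it describes the members and is no test. The side of a position depends on the listed start. The listed loci of APOA2, APOB, APOA4 and APOH are within 28 bp of the RefSeq gene lengths, those of APOE, APOC3 and APOC1 are 136, 194 and 519 bp longer, and that of APOA1 1151 bp longer. The locus of APOA5 is merged with ZNF259, so its excess of 16097 bp says nothing of the start and it was not moved. Moving the other starts downstream by the whole excess would place 8 trivalent positions upstream and 30 downstream. Of those upstream, 5 would be those of APOA1 and 3 those of APOE, and the same 5 members had all 3 features. The RefSeq promoter start of APOC1 lies farther into its locus than this excess. From that start the T at +555 bp would lie upstream, and APOC1 would not have all 3 features.

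By distance, 72.7%, 77.8% and 81.8% of the positions of the 8 members in the bins from 250 to 500, 500 to 750 and 750 to 1000 bp downstream were trivalent. In the other genes the share was 69.9% in the first of these bins but had fallen to 34.7% in the last. H3K27ac without H3K4me3 marked 50% and 55.6% of positions in the last 2 bins before the start, against 6.77% and 9.74%. Each bin of the members holds only 8 to 13 positions from 8 genes, and APOA2 supplies several of them. Distances are from the listed starts, which may lie upstream of the RefSeq starts at APOA1 and APOC1, and the bins were not counted from moved starts.

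**Figure D5:**
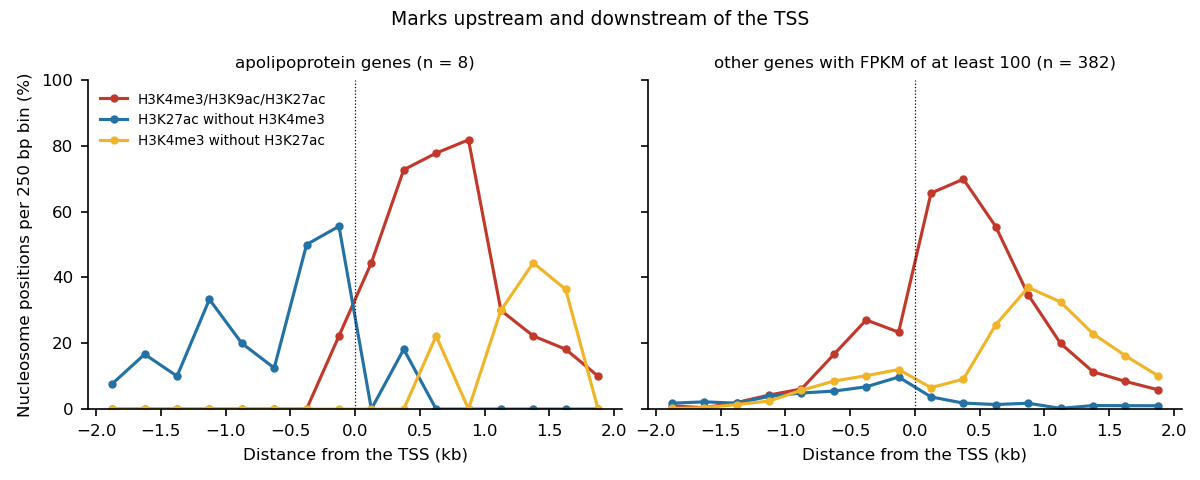
Percent of nucleosome positions with each kind of mark in 250 bp bins within 2 kb of the TSS, for 8 apolipoprotein genes (left) and 382 other genes with an FPKM of at least 100 (right). On the left, H3K27ac without H3K4me3 (blue) peaks before the start at 55.6% and trivalent positions (red) peak at 81.8% from 750 to 1000 bp after it, and on the right trivalent positions peak at 69.9% from 250 to 500 bp and blue stays under 10%.

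The CpG content of the promoter moved with this layout among the other genes. Of the 288 with a RefSeq promoter, the 50 with a CpG ratio under 0.6 had T upstream in 22% and H3K27ac without H3K4me3 upstream in 38%, and 28% had all 3 features. For the 238 with a ratio of 0.6 or more the shares were 45.8%, 17.2% and 7.98%. The median T count was 4 in both. All 7 matched members were in the first class, and the part of CpG content in their layout was not tested.

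The space over the start was read from the nucleosome positions alone, as the distance between the midpoints of the positions on either side of the TSS. It was 462 bp at APOH, 420 at APOA1, 375 at APOA2, 315 at APOA5, 260 at APOB, 237 at APOC1, 195 at APOC3, 165 at APOA4 and 155 at APOE. The median of these 9 was 260 bp, against 375 bp for 6360 genes with an FPKM of at least 1 and 218 bp for 5549 genes under 0.1. For the 382 other genes with an FPKM of at least 100 it was 371.5 bp. APOH and APOA1 lay above these medians and APOA2 at that of expressed genes. APOE, with an FPKM of 1152, had the narrowest space of the 9, with a trivalent position centred 68 bp from its listed start. The listed loci of APOE, APOC3, APOC1 and APOA1 are longer than the RefSeq genes. The space and this order depend on the listed start and were not read again from moved starts.

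Genes whose marks were arranged most like a member's were sought in 500 bp bins within 5 kb of the TSS. The measure was the sum of absolute differences in counts of 3 kinds of position. These were T, all other positions with activation marks only, and positions with a repressive mark. H3K27ac alone and H3K4me3 alone thus counted as the same kind, and a near match need not share their order. APOA2 had no close match: the nearest of 13359 genes was SDC1, a cell surface proteoglycan with 11 T and an FPKM of 88.0, at a sum of 11 where APOA2 has 22 marked positions. APOB was nearest to ZMAT3 (a sum of 9 with 19 marked positions, 3 genes tied) and APOH to UBQLN2 (6 with 15, 2 tied). APOA5 was nearest to SERPINA4 (4, no tie) and APOA1 to GPX3 (3, 2 genes tied). APOC1 differed by 1 from XPOT (2 genes tied), APOC3 by 1 from YTHDF1 (6 tied) and APOE by 2 from TXN2 (15 tied), and APOA4 matched 67 genes exactly. Of tied genes the one nearest in FPKM is named.

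Of 16 other genes of the apolipoprotein family or name, 15 were found, 11 had an FPKM of at least 1, as had 47.6% of the 13359 other analysed genes, and 3 had at least 100. These 3 lie in merged rows, APOC2 with APOC4 at 257 (both counted) and SAA4 with SAA2 at 289, and neither row had a marked position within 2 kb of its listed start. APOD (0.0229) and LPA (0.0259), the protein of lipoprotein(a), were under 0.1 and APOL5 was listed at 0. Of the 9 in the analysed set, that is with coordinates and a symbol of their own, 2 had at least 3 T, near the background of 27.7%. The median FPKM of the 15 was 7.57, against 0.584 over all analysed genes.

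Of 23 genes for lipoprotein assembly, remodelling and uptake, 22 were found, with a median FPKM of 15.3. Only P4HB reached 100, at 460.5 with 5 T within 2 kb, and 18 had at least 1, as had 47.6% of the other analysed genes. LPL, the lipase of capillary walls, and GPIHBP1, its anchor, were listed at 0, and ABCG1, a sterol exporter, had 0.0288. At least 3 T were found in 7 of the 15 in the analysed set, against 27.7% of other genes. A list of 14 transcription factor genes known to act on apolipoprotein promoters held those of the HNF4, HNF1, C/EBP and FOXA groups, among others. Of these, 13 had an FPKM of at least 1, against 47.6% of other genes, none had 100, and the median was 13.2. At least 3 T were found in 6 of the 9 in the analysed set, against 27.7%. That share covers silent genes too, whereas most genes of both lists had an FPKM of at least 1. Over the 6360 other genes at that level the median was 3 T, so neither count sets its list apart from expressed genes. The median FPKM of each list lay below the mean FPKM of 9 of the 10 members, all but APOA4.

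Among the 8 hepatocyte markers in the analysed set the median T count within 2 kb was 0. ALB, with an FPKM of 10011, had 2 T within 2 kb, AHSG (1473) had 4 and ASGR1 (176) had 9. AHSG and ASGR1 also had all 3 features described above, with 2 and 3 upstream positions of H3K27ac without H3K4me3. The others of the 8 did not. AFP (3798), SERPINA1 (1061), TTR (152) and TF (1006) had 0, and TF had no marked position there at all. At least 3 T were found in 2 of these 8, against 27.7% of all other analysed genes. All of the 8 but FGB (56.6) had an FPKM of at least 100. Among the 382 genes at that level the share was 71.2% and the median 4 T, so around their listed starts these markers lay below genes of like expression. Their listed loci were not set beside RefSeq. Whether a count of 0, as at TF, comes from a listed start away from the promoter was not tested.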

How the data were processed

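HepG2 was measured by native MNase-Seq, ChIP-Seq of 5 histone marks and RNA-Seq, with 1 sample per assay. Per the labels, MNase-Seq and ChIP-Seq reads were aligned with BWA to hg19. The authors called nucleosome positions with DANPOS and histone peaks at these positions with NUCLIZE against input, and deposited coordinates with an identifier but no score or read count. The authors deposited RNA-Seq values as FPKM in 2 columns. Per the labels, TopHat2 2.1.0, Bowtie, HOMER 4.7 and edgeR were used for this sample, while the layout is that of Cuffdiff and the tool that made the FPKM is not given in the sources used here. The FPKM columns add up to 857059 and 982212 over 30032 loci, and their mean was used as 1 replicate. The authors' columns of fold change, p-value and q-value between the runs were not used.

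Each peak reached 3 bp beyond a position on both sides and was matched to it by identifier. The strand came from the RefSeq promoter table or, failing that, from the order of locus numbering; for 8499 genes with both, 99.6% were the same, and 4867 had the order only. The TSS is the locus end on that strand. Named loci on chromosomes 1 to 22, X and Y with coordinates and 1 symbol of their own gave 13366 analysed genes, 7 members among them. APOA1 shares its coordinates with a second row, APOA5 is merged with ZNF259, and APOM shares a locus with other genes. Distances from a TSS were measured to the midpoint of a position. Intervals are exact Clopper-Pearson 95% intervals.

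The counting step was tested on simulated data. All members have values. Of the gene lists, every gene was counted and those with an FPKM of at least 100 or under 0.1 could be named; for neighbours, overlap with a locus plus 10 kb decided, and for similar genes the nearest profile. Members and lists were chosen with earlier results of these data known. Alternatives were each run alone, a pseudocount of 1, windows of 1 and 5 kb, other flanks, FPKM limits of 30 and 300, any overlap of a peak, the other strand source and all named loci. The work was done in Python 3.11.15 with pandas 2.3.3, numpy 2.4.6, scipy 1.17.1 and matplotlib 3.10.9.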

Additional observations from a re-analysis of the deposited data

How the results depend on the processing

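Marked positions over the 10 loci numbered 132 with 10 kb on each side, 126 with 5 kb, 155 with 20 kb, 144 when any overlap of a peak counted, and 81 without a flank, the last of which leaves out the positions upstream of each start. The trivalent share of marked positions ran from 39.4% to 50.6%, and no repressive mark was found under any of these settings. Members with at least 3 T were 8 within 2 kb, 7 within 1 kb and 8 under the other settings, beside 23.7% to 30.5% of the other genes. Trivalent positions upstream of the TSS of members with their own start were 2 within 1 and 2 kb but 4 within 5 kb, where a pair at the next locus joins those of APOE, and 8 when starts were moved by the excess of the listed over the RefSeq length, an alternative chosen after seeing the data. Downstream they ran from 28 to 38. The members with all 3 features numbered 5 under each setting, but within 5 kb APOA1 took the place of APOA2, beside 5.30% of other genes with an FPKM of at least 1, 8.45% with at least 30 and 11.6% with at least 300. The RefSeq promoter start of APOC1, from which it would have T upstream, was not among the settings. A stricter peak limit could not be set because the lists hold no scores, and depth is unknown. No paired analysis was possible because each assay has 1 sample and no groups were compared.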
